A study of Mus musculus with 12 samples.

Results

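Small heat shock proteins were followed in bulk RNA of 12 heart samples of male mice, together with Bag3, a cochaperone that works with several of them. The genes were taken by symbol from the gene count table, as Hspb1, Hspb2, Hspb3, Hspb6, Hspb7, Hspb8, Cryab and Bag3. This gave 8 of the 55357 gene identifiers listed, and all 8 were counted deeply enough to be tested. The samples came from Cd163-/- mice (KO) after transverse aortic constriction (TAC), KO mice after sham surgery, wild-type C57BL/6J mice (WT) after TAC, and WT mice after sham surgery, with 3 samples per group. The labels tie no sample to an animal, so it is not known here whether the 3 are separate animals. TAC narrows the aortic arch and so loads the left ventricle with pressure. It was done at 8 weeks of age over a 27-gauge needle. No source used here gives the deleted part of Cd163, the cell types that lose it, or how long after surgery the hearts were taken. Replicates are numbered 1, 3 and 5 in the TAC groups and 1, 2 and 3 in the sham groups, as in the sample titles.

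Small heat shock proteins are chaperones that need no ATP. They share a conserved alpha-crystallin domain, assemble into oligomers, and hold unfolding proteins in a state from which larger chaperones can refold them or hand them to degradation. Heart muscle is among the tissues richest in them, and there they bind desmin, titin, actin and other parts of the contractile and cytoskeletal scaffold. HSPB8 works in a complex with BAG3, which couples it to the Hsp70-type chaperones and to the selective autophagy of damaged filamin. Stress can raise the transcription of several family members through heat shock factor 1, which binds arrays of inverted GAA and TTC blocks.

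Promoter stretches are shown because heat shock factor binds such blocks and the 8 genes differed in their course over the groups. RefSeq promoters of the GRCm38.p6 build, running from 250 bases before to 50 bases after the start site, were at hand for 6 of the 8 genes (7 promoters, since Hspb6 has a pair); Hspb2 and Cryab had no entry. The motif GAANNTTC, which reads the same on both strands, was present in the promoters of 5 of the 6 genes, and 7.86% of the 32851 promoters of the reference table hold it. The match is set in capitals below within up to 26 flanking bases on each side, on the strand of the gene, and positions count from the start site.
Hspb1, chr5:135887776-135887855, plus strand, matches at -117 and -97: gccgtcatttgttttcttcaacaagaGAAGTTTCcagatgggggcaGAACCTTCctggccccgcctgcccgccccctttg
Hspb6, chr7:30553155-30553214, plus strand, match at -120: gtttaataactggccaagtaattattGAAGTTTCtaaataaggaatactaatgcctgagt
Hspb3, chr13:113663867-113663926, minus strand, match at -224: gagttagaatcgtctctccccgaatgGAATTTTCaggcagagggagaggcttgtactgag
Hspb8, chr5:116422835-116422888, minus strand, match at 3: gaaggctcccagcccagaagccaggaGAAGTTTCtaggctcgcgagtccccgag
Bag3, chr7:128523603-128523632, plus strand, match at 43: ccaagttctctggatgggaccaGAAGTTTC

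The same 8 letters, GAAGTTTC, stood in the promoters of 4 of the 6 genes (Hspb1, Hspb6, Hspb8 and Bag3), against 1.21% of all promoters; this exact form was picked out after the matches were seen. An array of 3 alternating blocks, which extends the motif by a further GAA or TTC at the same spacing, was in 0 of the 6 genes and in 0.603% of all promoters on either strand. The reversed order TTCNNGAA was also in none of the 6, against 8.52% of all promoters. The Hspb7 promoter held none of these motifs, and TATAAA, present in 13.6% of all promoters, was found in those of Hspb3 and Hspb6. Of the 4 carriers of GAAGTTTC, Hspb1, Hspb6 and Hspb8 were called lower in KO TAC than in WT TAC hearts and Bag3 was not, and Hspb7, which lacks it, was called lower as well.

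Libraries held 14150109 to 16913259 counts in KO TAC, 15804176 to 22602225 in KO sham, 16671952 to 18608925 in WT TAC and 19987174 to 22400473 in WT sham hearts. Cd163 itself had 47 to 59 counts in KO TAC and 46 to 112 in KO sham hearts, against 255 to 592 in WT TAC and 282 to 344 in WT sham hearts. Every KO library lay below every WT library. The first principal component held 66.7% of the variance. On it KO sham replicate 1 stood at 44.6, among the KO TAC libraries (40.4 to 44.9). WT TAC replicate 1 stood at 6.69, and the others ran from -32.9 to -17.9. The share of counts from the mitochondrial genome was 51.0% in KO sham replicate 1, 44.0% to 51.3% in KO TAC, and 24.8% to 36.9% in the remaining 8 libraries. The calls among the 8 genes in each comparison are therefore given with all libraries and without KO sham replicate 1. Some fits also leave out WT TAC replicate 1, the other library that stood apart. Both were picked by their values in these same data. Calls without them show how the results depend on these libraries and are no separate support. The 10 cardiomyocyte markers summed to 38723 to 42273 CPM in KO TAC, 30822 (replicate 1) to 53464 in KO sham, 57734 to 59623 in WT TAC and 59269 to 62170.5 in WT sham hearts. The labelled tissue thus carried its defining transcripts. The 10 skeletal muscle markers summed to between 3.48 and 7.99 CPM in every library.

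Levels are CPM, read counts scaled to the TMM-adjusted size of each library. Differences are log2 fold changes ± SE from edgeR's quasi-likelihood test, fitted to 15804 genes over all 12 libraries. A gene is said to have risen or fallen at a Benjamini-Hochberg adjusted p under 0.05 over all genes tested. Hspb7, Hspb6, Cryab, Hspb8 and Hspb1 were lower in KO TAC than in WT TAC hearts, with all 3 KO TAC libraries below all 3 WT TAC libraries for each. These are 5 of 8 genes. Over all genes tested, 11.7% were called lower in this comparison, 8.63% higher and 20.4% either way. Scaled by library totals instead, the calls split into 515 higher and 3010 lower, against 1364 and 1855 with TMM, and the same 5 of the 8 were called. Of all genes, 24.3% had every KO TAC library below every WT TAC library. In WT hearts, Hspb1, Cryab, Hspb7, Hspb6 and Hspb2 were higher in every TAC library than in any sham library, yet 0 of the 8 passed the test with all libraries. In bulk tissue, fewer cells of a type and less RNA per cell cannot be told apart, which touches every level below.

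**Figure D1:**
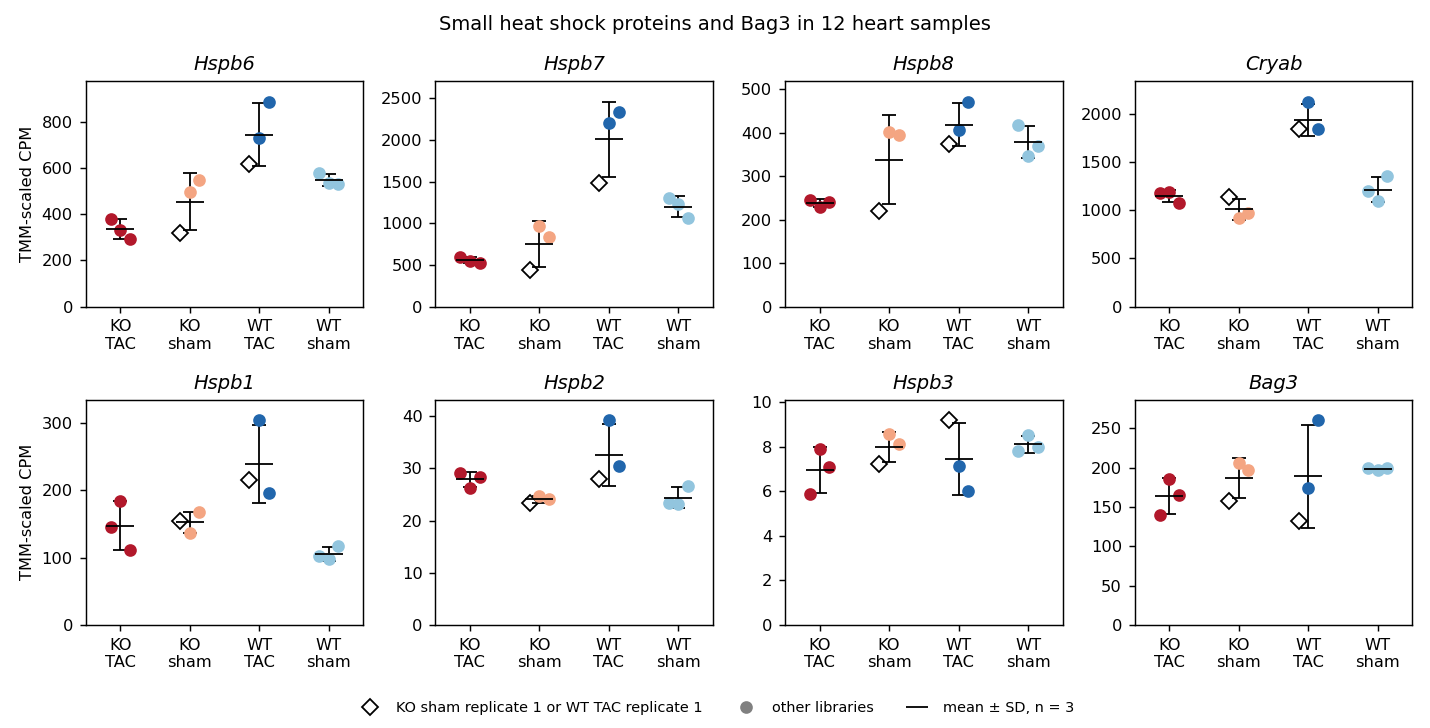
CPM of each gene by library (vertical axis, linear, from 0) in KO TAC, KO sham, WT TAC and WT sham hearts. Points are libraries, bars are the mean ± SD of 3, and open diamonds are KO sham replicate 1 and WT TAC replicate 1; for Hspb7 the KO TAC points sit between 519.9 and 591 CPM and the WT TAC points between 1486 and 2332 CPM.

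Hspb7 (ENSMUSG00000006221, chromosome 4), expressed mainly in heart and skeletal muscle, binds actin and filamin, and its loss in mice disturbs thin filament assembly. It had 591, 548 and 519.9 CPM in KO TAC replicates 1, 3 and 5. In KO sham replicates 1, 2 and 3 it had 436, 968 and 838 CPM. It had 1486, 2201 and 2332 CPM in WT TAC replicates 1, 3 and 5, and 1303, 1234 and 1066 CPM in WT sham replicates 1, 2 and 3. All 6 KO libraries lay below all 6 WT libraries, KO sham replicate 1 was the lowest of the 12, and WT TAC replicates 3 and 5 were the highest. Group means were 553 ± 35.9 CPM in KO TAC, 747 ± 277 in KO sham, 2006 ± 456 in WT TAC and 1201 ± 122 in WT sham hearts (SD, n = 3 each). Hspb7 fell in KO against WT hearts after TAC (log2 fold change -1.86 ± 0.29, adjusted p = 0.0116), the largest difference among the 8 genes. Without KO sham replicate 1 it was -1.86 ± 0.18 (adjusted p = 7.34e-05). After sham surgery the difference was -0.68 ± 0.28 (adjusted p = 0.339), and -0.41 ± 0.20 (0.539) without KO sham replicate 1.

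Hspb6 (ENSMUSG00000036854, chromosome 7) is a substrate of protein kinase A that is found on actin and in the cytosol of heart and smooth muscle. It had 381, 332 and 292 CPM in KO TAC replicates 1, 3 and 5. The KO sham libraries, replicates 1, 2 and 3, had 317, 497 and 549 CPM. It had 616, 729 and 888 CPM in the WT TAC libraries and 576, 534 and 533 CPM in the WT sham libraries, in the same order of replicates. WT TAC libraries were the 3 highest, and KO sham replicate 1 lay among the KO TAC values while its group mates lay above all of them. Means were 335 ± 44.5 CPM in KO TAC, 454 ± 122 in KO sham, 744 ± 137 in WT TAC and 548 ± 24.9 in WT sham hearts (SD, n = 3 each). Hspb6 fell in KO against WT hearts after TAC (-1.15 ± 0.23, adjusted p = 0.0179; 0.000339 without KO sham replicate 1).

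Hspb8 (ENSMUSG00000041548, chromosome 5) is the small heat shock protein that BAG3 carries. It had 245, 229 and 240.3 CPM in KO TAC replicates 1, 3 and 5. KO sham replicates 1, 2 and 3 had 219, 400.5 and 394 CPM. It had 375, 407 and 472 CPM in the WT TAC libraries and 419, 347 and 368 CPM in the WT sham libraries. KO sham replicate 1 and the 3 KO TAC libraries were the lowest of the 12, and the other 8 libraries ran from 347 to 472 CPM with WT TAC and WT sham overlapping. Means were 238 ± 8.34 CPM in KO TAC, 338 ± 103 in KO sham, 418 ± 49.3 in WT TAC and 378 ± 36.9 in WT sham hearts (SD, n = 3 each). Hspb8 fell in KO against WT hearts after TAC (-0.81 ± 0.23, adjusted p = 0.0333; 0.000877 without KO sham replicate 1).

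Bag3 (ENSMUSG00000030847, chromosome 7), the cochaperone whose mutations cause dilated cardiomyopathy in humans, was called in none of the 5 comparisons with all libraries. It had 140.3, 186 and 165 CPM in KO TAC replicates 1, 3 and 5. In KO sham replicates 1, 2 and 3 it had 158, 206 and 197 CPM. It had 132, 174 and 260.4 CPM in the WT TAC libraries and 199.7, 197 and 199 CPM in the WT sham libraries. The WT TAC libraries held both the lowest and the highest value of the 12, and the KO TAC values lay within their range. The difference between KO and WT hearts after TAC was -0.20 ± 0.23 (adjusted p = 0.526; 0.450 without KO sham replicate 1), with means of 164 ± 22.9 CPM in KO TAC and 189 ± 65.7 CPM in WT TAC hearts (SD, n = 3 each).

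Cryab (ENSMUSG00000032060, chromosome 9), alpha-B-crystallin, is the main chaperone of desmin in heart muscle, and human mutations in it cause desmin-related myopathy. It had 1181, 1186 and 1069 CPM in KO TAC replicates 1, 3 and 5. The KO sham libraries, replicates 1, 2 and 3, had 1132, 918 and 970.1 CPM. It had 1838, 2124 and 1840.1 CPM in the WT TAC libraries and 1196, 1093 and 1348 CPM in the WT sham libraries. The 3 WT TAC libraries stood apart at the top, and the other 9 overlapped between 918 and 1348 CPM. Means were 1146 ± 65.9 CPM in KO TAC, 1007 ± 111 in KO sham, 1934 ± 165 in WT TAC and 1212 ± 128 in WT sham hearts (SD, n = 3 each). Cryab fell in KO against WT hearts after TAC (-0.76 ± 0.18, adjusted p = 0.0236; 0.00136 without KO sham replicate 1).

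Hspb1 (ENSMUSG00000004951, chromosome 5) is a phosphorylation-regulated member that protects actin filaments. It had 146, 185 and 112 CPM in KO TAC replicates 1, 3 and 5. KO sham replicates 1, 2 and 3 had 154, 136 and 167 CPM. It had 216, 304 and 195 CPM in the WT TAC libraries and 102, 97.9 and 118 CPM in the WT sham libraries. WT TAC libraries were the 3 highest, the KO TAC and KO sham values overlapped, and every KO sham library exceeded every WT sham library. Means were 147 ± 36.4 CPM in KO TAC, 152 ± 15.6 in KO sham, 238 ± 57.8 in WT TAC and 106 ± 10.4 in WT sham hearts (SD, n = 3 each). Hspb1 fell in KO against WT hearts after TAC (-0.69 ± 0.22, adjusted p = 0.0466; 0.0172 without KO sham replicate 1), and after sham surgery its difference was 0.52 ± 0.22 (adjusted p = 0.343; 0.480 without that library).

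Hspb2 (ENSMUSG00000038086, chromosome 9) is a muscle member that binds the myotonic dystrophy kinase and pairs with HSPB3. It had 29.0, 26.3 and 28.3 CPM in KO TAC replicates 1, 3 and 5. In KO sham replicates 1, 2 and 3 it had 23.4, 24.8 and 24.1 CPM. It had 28.0, 39.2 and 30.4 CPM in the WT TAC libraries and 23.3, 23.2 and 26.6 CPM in the WT sham libraries. Every TAC library exceeded every sham library of its genotype, and KO and WT values overlapped after TAC and after sham surgery. Means were 27.9 ± 1.41 CPM in KO TAC, 24.1 ± 0.683 in KO sham, 32.5 ± 5.93 in WT TAC and 24.4 ± 1.97 in WT sham hearts (SD, n = 3 each). The difference between KO and WT hearts after TAC was -0.22 ± 0.14 (adjusted p = 0.247; 0.205 without KO sham replicate 1).

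Hspb3 (ENSMUSG00000051456, chromosome 13), the partner of HSPB2 in muscle, was the lowest of the 8 genes per kilobase of transcript. It had 5.86, 7.90 and 7.08 CPM in KO TAC replicates 1, 3 and 5. The KO sham libraries, replicates 1, 2 and 3, had 7.23, 8.59 and 8.11 CPM. It had 9.19, 7.15 and 5.99 CPM in the WT TAC libraries and 7.78, 8.53 and 8.00 CPM in the WT sham libraries. All 4 groups overlapped. The difference between KO and WT hearts after TAC was -0.10 ± 0.19 (adjusted p = 0.696; 0.661 without KO sham replicate 1).

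Hspb2 and Cryab lie on opposite strands of chromosome 9 and share 252 exon bases in the GENCODE M21 annotation. Hspb6 shares 122 exon bases with Proser3 on the opposite strand and 77 with Gm38670 on the same strand. No source used here says whether counting used strand. Reads of such pairs may therefore not be separable, and the values of Hspb2, Cryab and Hspb6 are uncertain to that extent. Per kilobase of the longest coding transcript, Cryab was the highest in every group, with 1026 ± 59.0 CPM per kb in KO TAC, 901 ± 99.6 in KO sham, 1731 ± 147 in WT TAC and 1085 ± 115 in WT sham hearts (SD, n = 3 each). In WT sham hearts the levels per kb then ran Hspb7 434 ± 44.0, Hspb6 402 ± 18.2, Hspb8 208 ± 20.3, Hspb1 114 ± 11.2, Bag3 77.5 ± 0.549, Hspb2 31.5 ± 2.54 and Hspb3 10.4 ± 0.494 CPM per kb. The ranges of Hspb7 (385 to 471) and Hspb6 (391 to 423) overlapped there. In KO TAC hearts Hspb6 (246 ± 32.6 CPM per kb) stood above Hspb7 (199.7, from 188 to 213). The mean of Hspb1 (158 ± 39.1, from 120 to 198) stood above that of Hspb8 (131 ± 4.59, from 126 to 135), with overlapping ranges. With the union of all exons as the length, Hspb7 stood above Hspb6 in KO TAC hearts as well (199.7 and 146 CPM per kb), so the order of Hspb6 and Hspb7 depends on the length used.

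**Figure D2:**
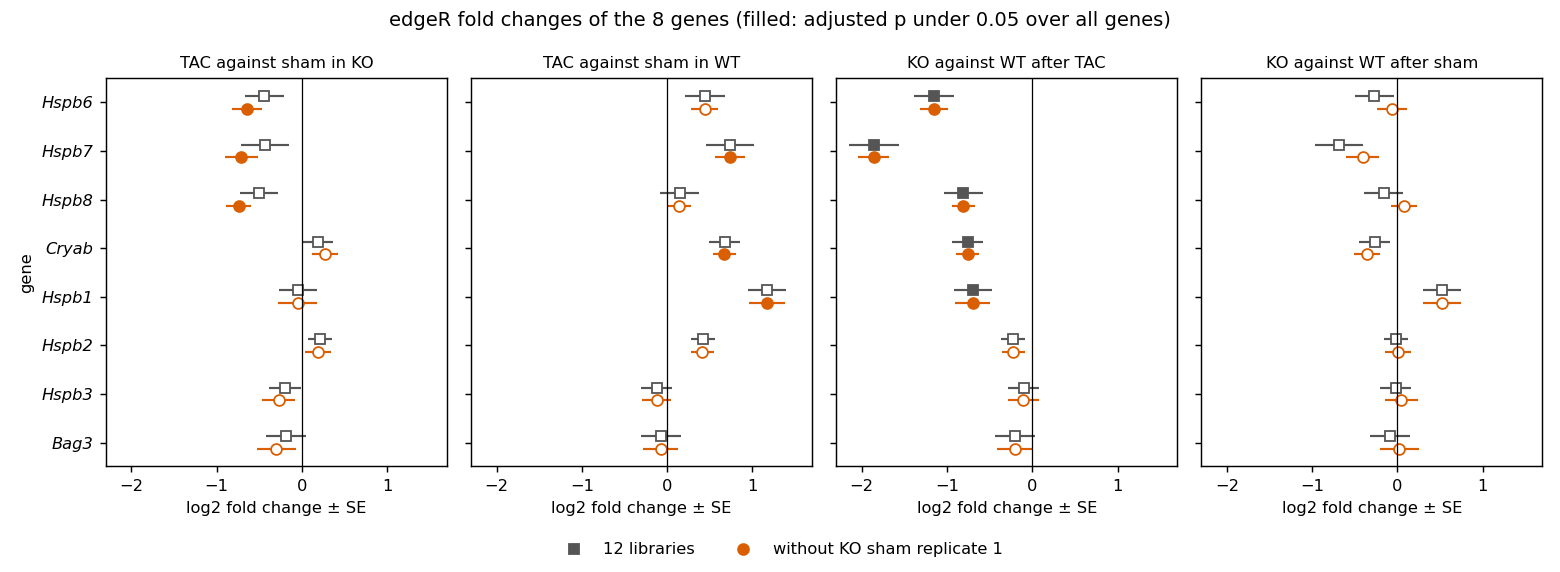
Log2 fold changes ± SE of the 8 genes (horizontal axis) from edgeR in 4 comparisons, as squares with all 12 libraries and as circles without KO sham replicate 1; filled symbols have an adjusted p under 0.05 over all genes. With all libraries, after TAC all 8 estimates for KO against WT lie below 0, from -1.86 for Hspb7 to -0.10 for Hspb3, and 5 of them passed the test.

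After TAC, the median of the 8 differences between KO and WT hearts was -0.72, beside a median of -0.02 over all genes tested. The 5 calls were the same without KO sham replicate 1, where 22.1% of all genes were called lower, and DESeq2 and limma-voom with sample weights called the same 5 genes (30.2% and 48.2% of all genes called either way). Without WT TAC replicate 1 as well, Hspb2 (-0.31, adjusted p = 0.0450) and Bag3 (-0.40, 0.0411) also passed as lower. That was 7 of 8 genes where 27.7% of all genes were called lower and 53.8% either way. WT TAC replicate 1, left out because it stood apart, held the lowest Bag3 value of the 12 libraries. The 5 calls depended on single KO TAC and WT TAC libraries for their adjusted p but not for their direction. With KO TAC replicate 1 or 3 left out 0 of the 8 passed, where 0.357% and 0.265% of all genes were called either way. Hspb7 alone of the 8 passed with KO TAC replicate 5 left out (2.7% of all genes), with WT TAC replicate 3 left out (0.523%) and with WT TAC replicate 5 left out (1.02%). With WT sham replicate 1 or 2 left out 3 passed, against 10.6% and 11.7% of all genes. These shares compare with 20.4% in the fit of all 12 libraries. The adjusted p of Hspb7 was then at most 0.0606, that of Hspb6 at most 0.0805, that of Cryab at most 0.0936, that of Hspb8 at most 0.114 and that of Hspb1 at most 0.175. Over the 12 fits that each left out 1 library, the difference ran from -2.02 to -1.74 for Hspb7, -1.26 to -1.01 for Hspb6, -0.79 to -0.69 for Cryab, -0.87 to -0.72 for Hspb8 and -0.89 to -0.48 for Hspb1.

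In WT hearts, TAC against sham gave a difference of 1.17 ± 0.22 for Hspb1 (adjusted p = 0.0722), 0.74 ± 0.28 for Hspb7 (0.247), 0.67 ± 0.18 for Cryab (0.157), 0.44 ± 0.23 for Hspb6 (0.355) and 0.42 ± 0.14 for Hspb2 (0.214). By edgeR 0 of the 8 genes passed, against 0.0316% of all genes tested. Of the 8, 4 had an unadjusted p under 0.05, as had 2562 of all 15804 genes. DESeq2 called 2 (Hspb1 and Cryab, with 3.26% of all genes) and limma-voom called 4 (6.8%). The 5 genes named were higher in every TAC library than in any sham library, which held for 13.4% of all genes. Without KO sham replicate 1, which enters this comparison only through the shared fit, Hspb1 (1.17 ± 0.21, adjusted p = 0.0127), Cryab (0.67 ± 0.14, 0.0203) and Hspb7 (0.74 ± 0.18, 0.0330) rose, 3 of 8 genes where 3.4% of all genes were called higher. Without WT TAC replicate 1 as well, Hspb6 (0.57, adjusted p = 0.0261) and Hspb2 (0.52, 0.0268) rose too, 5 of 8 genes against 3.39% of all genes. Hspb8 (0.15 ± 0.23), Bag3 (-0.07 ± 0.23) and Hspb3 (-0.12 ± 0.18) had no call with or without KO sham replicate 1.

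In KO hearts, TAC against sham gave -0.50 ± 0.23 for Hspb8 (adjusted p = 0.156), -0.44 ± 0.23 for Hspb6 (0.206), -0.43 ± 0.28 for Hspb7 (0.299), 0.21 ± 0.14 for Hspb2 (0.314) and 0.19 ± 0.18 for Cryab (0.481). By edgeR 0 of the 8 passed with all libraries, against 0% of all genes. Of the 8, 1 had an unadjusted p under 0.05, as had 4878 of all 15804 genes. DESeq2 called 0 (11.8% of all genes) and limma-voom called 4 (63%). Hspb2 was higher in every TAC library than in any sham library, as were 11.6% of all genes. Without KO sham replicate 1, Hspb8 (-0.74 ± 0.15, adjusted p = 0.00181), Hspb6 (-0.65 ± 0.18, 0.00932) and Hspb7 (-0.71 ± 0.19, 0.00932) fell. That was 3 of 8 genes where 25.2% of all genes were called lower, and leaving out WT TAC replicate 1 as well gave the same 3 against 28.7%. Both counts stand close to the share over all genes. Hspb1 differed by -0.05 ± 0.22 between KO TAC and KO sham hearts (adjusted p = 0.891).

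After sham surgery, 0 of the 8 genes differed between KO and WT hearts by edgeR, against 0.00633% of all genes tested. Of the 8, 2 had an unadjusted p under 0.05, as had 2138 of all 15804 genes. DESeq2 called 0 (1.31% of all genes) and limma-voom called 3 (14.9%). Every KO sham library lay above every WT sham library for Hspb1, as for 12.2% of all genes, and below it for Hspb7, as for 10.4% of all genes. With KO sham replicate 1 left out, 0 of the 8 were called (0.241% of all genes). An unadjusted p under 0.05 was then seen for 1559 of all 16196 genes and for 2 of the 8. These were Hspb1 (0.52 ± 0.23) and Cryab (-0.36 ± 0.15, adjusted p = 0.476). The 2 remaining KO sham libraries lay above every WT sham library for Hspb1, as for 18.6% of all genes, and below for Hspb7 and Cryab, as for 17.7%. The difference in the TAC response between the genotypes, KO minus WT, was -1.22 ± 0.31 for Hspb1 (adjusted p = 0.361), -1.17 ± 0.40 for Hspb7 (0.475), -0.88 ± 0.33 for Hspb6 (0.503) and -0.65 ± 0.32 for Hspb8 (0.561). By edgeR 0 of the 8 passed this interaction test, against 0% of all genes. Of the 8, 3 had an unadjusted p under 0.05, as had 1452 of all 15804 genes. DESeq2 called 1 (Hspb1, with 0.595% of all genes) and limma-voom called 4 (31.8%). Without KO sham replicate 1, Hspb7 (-1.45 ± 0.26, adjusted p = 0.00750), Hspb6 (-1.09 ± 0.24, 0.0150), Hspb8 (-0.89 ± 0.20, 0.0175) and Hspb1 (-1.22 ± 0.30, 0.0263) passed, 4 of 8 genes where 7.45% of all genes were called lower. The same 4 passed without WT TAC replicate 1 as well, against 20.2% of all genes.

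**Figure D3:**
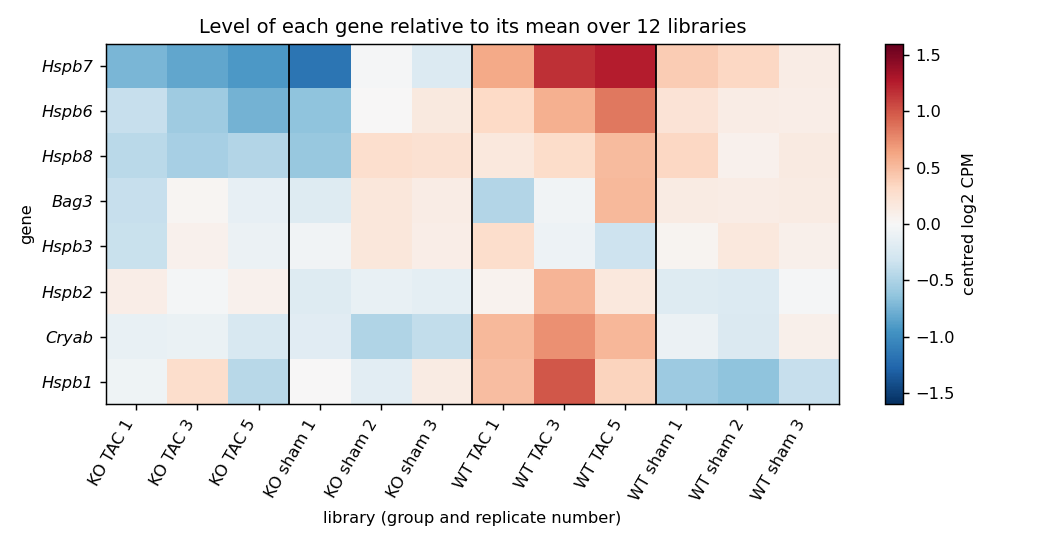
Log2 CPM of the 8 genes centred on each gene's mean over the 12 libraries, with libraries in columns by group (KO TAC, KO sham, WT TAC, WT sham). Hspb6, Hspb7 and Hspb8 in KO sham replicate 1 take the low values of the KO TAC columns, while Hspb1 is low in the WT sham columns.

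The courses of the 8 genes over the libraries were compared by the root mean square (RMS) difference of their centred log2 CPM, a description over 12 libraries that share groups and depth. Hspb6 and Hspb8 were the closest pair (0.181), followed by Hspb2 and Cryab (0.250), which share exon bases, and Hspb8 and Bag3 (0.316). The last value lay nearer the medians over other genes for Hspb8 (0.425) and Bag3 (0.381) than their closest genes (0.0696 and 0.117). Hspb3 and Hspb7 were the farthest apart (0.781). The same 3 pairs were the closest without KO sham replicate 1 (0.189, 0.261 and 0.306 over 11 libraries). Hspb8 and Bag3 (0.3056) were then nearly tied with Hspb6 and Hspb7 (0.3061). Among 8052 other genes with a mean of at least 10 CPM, Hspb6 was closest to Des, which encodes desmin (0.105, median over all candidates 0.510), and Hspb8 to Capzb, which encodes the beta subunit of the actin capping protein of the Z-disc (0.0696, median 0.425). Fopnl was nearly as close to Hspb8 (0.0700). Hspb7 was closest to Pik3r1 (0.188) and Trim54 (0.196, median 0.767), Cryab to Cd63 (0.143, median 0.504), and Hspb1 to Nppb, which encodes B-type natriuretic peptide (0.226, median 0.576). Bag3 was closest to Hexa (0.117, median 0.381), Hspb2 to Wdr77 (0.0897, median 0.387) and Hspb3 to Zfp865 (0.120, median 0.367). The closest gene changed without KO sham replicate 1 for Bag3, to Rbm38 (0.0989), and for Hspb2, to Fbl (0.0469), and was the same for the other 6. Trim54 was then no longer among the 3 genes closest to Hspb7.

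The sum of the 10 cardiomyocyte markers was lower in KO TAC than in WT TAC hearts. Levels were therefore also set against this sum in the same library. The markers did not differ alike. Actc1 had 2144 ± 119 CPM in KO TAC and 7671 ± 1753 CPM in WT TAC hearts, and Tnni3 4564 ± 206 and 4601 ± 838 CPM. The share of all genes without overlap on this scale was not computed. Per 1000 CPM of the 10 markers, Hspb7 stood at 13.7 ± 1.40 CPM in KO TAC, 16.3 ± 2.01 in KO sham, 34.4 ± 8.29 in WT TAC and 19.8 ± 2.28 in WT sham hearts (SD, n = 3 each), so all 3 KO TAC libraries (at most 15.3) remained below all WT TAC libraries (at least 24.9). On the same scale Hspb6 stood at 8.28 ± 1.39 in KO TAC and 12.7 ± 2.53 in WT TAC hearts, again without overlap (at most 9.83 and at least 10.3). Cryab stood at 28.3 ± 2.16 in KO TAC and 33.1 ± 3.02 in WT TAC hearts, with at most 30.5 and at least 30.8, and Hspb1 at 3.62 ± 0.821 and 4.07 ± 1.00, which overlapped. Hspb8 stood at 5.88 ± 0.459 and 7.15 ± 0.950, which overlapped as well (at most 6.34 and at least 6.29). Hspb2, Hspb3 and Bag3 had the higher mean in KO TAC hearts on this scale, and each overlapped. Hspb2 stood at 0.688 ± 0.0640 in KO TAC and 0.557 ± 0.106 in WT TAC hearts, Hspb3 at 0.171 ± 0.0180 and 0.127 ± 0.0255, and Bag3 at 4.03 ± 0.390 and 3.24 ± 1.17 in the same order. For Hspb1, KO sham hearts (3.62 ± 1.24, from 2.55 to 4.98) had the same mean as KO TAC hearts, and KO TAC, KO sham and WT TAC libraries all lay above every WT sham library (1.74 ± 0.134). KO sham replicate 1 was the highest of its group at 4.98, and the other 2 had 2.55 and 3.33. The marker sum itself differed between groups and its part in the differences was not tested.

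**Figure D4:**
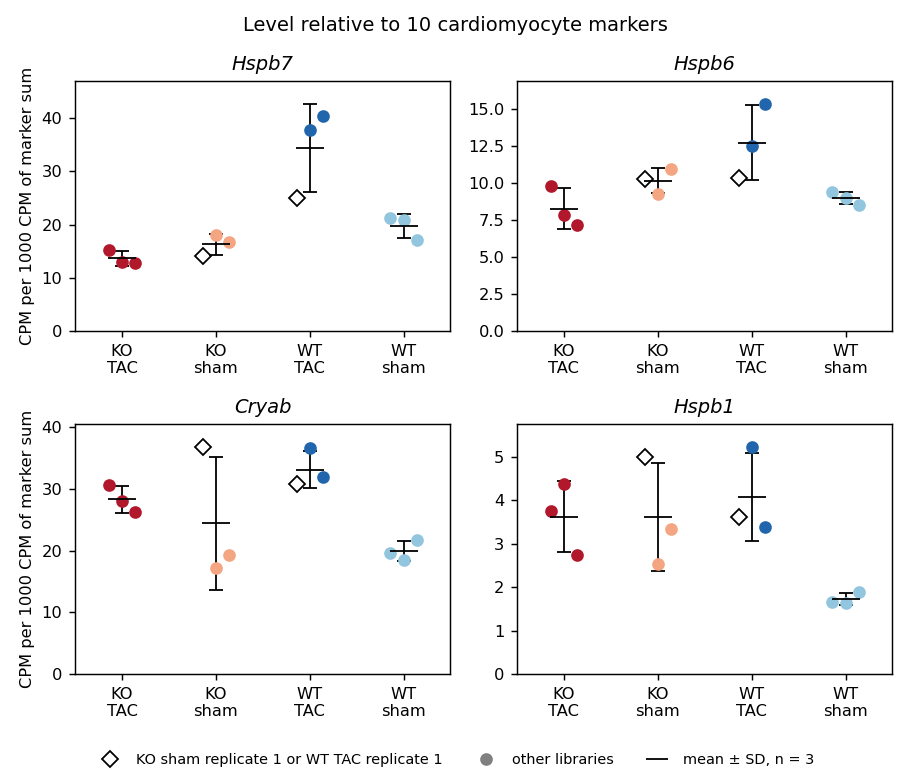
Hspb7, Hspb6, Cryab and Hspb1 in CPM per 1000 CPM of the summed cardiomyocyte markers, by library in KO TAC, KO sham, WT TAC and WT sham hearts. Points are libraries, bars the mean ± SD of 3, and open diamonds KO sham replicate 1 and WT TAC replicate 1; Hspb7 is at most 15.3 in KO TAC and at least 24.9 in WT TAC hearts.

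Lists of related genes gave the surroundings of these 8 genes in KO against WT hearts after TAC. On the lists 101 genes were tested, of which 9 were called higher and 19 lower. Over all genes tested, 8.63% were called higher and 11.7% lower, and the counts of each list stand beside these shares. The lists were not tested as sets. On a chosen list of 12 cytoskeletal and Z-disc scaffold proteins, 4 fell and 0 rose, with a median of -0.53. Des fell by 1.21 on the log2 scale (adjusted p = 0.0164; 752 ± 40.1 CPM in KO TAC, 1737 ± 366 CPM in WT TAC hearts; SD, n = 3 each). Ldb3, which holds alpha-actinin in the Z-disc, fell by 0.99 (0.0255), Dmd, encoding dystrophin, by 0.84 (0.0473) and Capzb by 0.78 (0.0299). Of 8 kinases that phosphorylate small heat shock proteins or stand upstream of them, 3 fell and 0 rose, with a median of -0.53. These were Prkaca, a catalytic subunit of protein kinase A (-1.54 ± 0.40, adjusted p = 0.0289), Mapkapk2, the main kinase of HSPB1 (-1.32 ± 0.35, 0.0303), and Prkg1, protein kinase G (-0.92 ± 0.26, 0.0339).

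The 15 genes of chaperone-assisted autophagy split, with 3 higher and 2 lower and a median of -0.41. Hspa1a, an inducible Hsp70-type chaperone, rose by 2.85 ± 0.80 (adjusted p = 0.0332; 28.5 ± 16.2 CPM in KO TAC, 3.95 ± 4.09 CPM in WT TAC hearts). Ubqln2, a ubiquitin shuttle, rose by 0.75 ± 0.16 (0.0198) and Dynll1, a dynein light chain, by 1.16 ± 0.34 (0.0382), while Map1lc3b, an autophagosome protein, fell by 0.88 (0.0268). The 15 other chaperone targets of heat shock factor 1 split as well, with 4 higher, 3 lower and a median of -0.12. Hspa1a and Hspa1b are on both lists, and Flnc is on the autophagy list and the cytoskeletal list. Dnaja1, a cochaperone of the Hsp70 type, rose by 1.66 ± 0.26 (adjusted p = 0.0116; 180.4 ± 48.5 CPM in KO TAC, 57.0 ± 14.8 CPM in WT TAC hearts). Chordc1, an Hsp90 cochaperone, rose by 1.43 ± 0.27 (0.0165), Hspe1, the mitochondrial chaperonin lid, fell by 0.93 (0.0165), and Ahsa1, an activator of Hsp90, fell by 0.87 (0.0271).

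Of the 5 other BAG genes, Bag2 fell by 0.82 (adjusted p = 0.0455) and 0 rose, and of 4 heat shock factor genes, Hsbp1, which binds and restrains heat shock factor, fell by 0.66 (0.0254) and 0 rose. Of 4 further small heat shock genes only Hspb11 was counted deeply enough to be tested (3.21 ± 0.141 CPM in KO TAC, 3.48 ± 0.367 CPM in WT TAC hearts, log2 difference -0.11, no call), and Cryaa, Hspb9 and Odf1 stayed at or below 0.197 CPM in every library. Among 10 cardiomyocyte markers, Actc1 (-1.84 ± 0.45, adjusted p = 0.0243), Ryr2 (-1.32 ± 0.36, 0.0313), Pln (-1.57 ± 0.45, 0.0351) and Myl3 (-0.75 ± 0.24, 0.0480) fell, with a median of -0.53, and their part in the results on Hspb7, Hspb6, Hspb8, Cryab and Hspb1 was not tested. Among the other cell types, 2 of 8 fibroblast markers rose, Dpt by 1.09 (adjusted p = 0.0171) and Dcn by 0.90 (0.0278). Dcn alone had 843 ± 89.8 CPM in KO TAC and 452 ± 84.3 CPM in WT TAC hearts. Without a call, Lum and Pdgfra had the higher mean in KO TAC hearts, and Col1a1, Col1a2, Col3a1 and Tcf21 the lower. Of 8 macrophage markers Cd68 fell by 0.52 (adjusted p = 0.0485). Mrc1, Csf1r, C1qa and C1qb had the higher mean in KO TAC hearts and Adgre1, Fcgr1 and Lyz2 the lower, with no call. Of 5 skeletal muscle markers tested Pvalb rose by 4.35 (adjusted p = 0.0165), at levels near the floor. Pvalb had 0.918 to 2.69 CPM in KO TAC and at most 0.147 CPM in WT TAC libraries. Means of Mylpf and Tnnt3 were also higher in KO TAC hearts and those of Tnni2 and Atp2a1 lower, with no call. No smooth muscle (0 of 6) or endothelial marker (0 of 7) was called, although all 7 endothelial differences were positive (4 of 7 when scaled by library totals). The fibroblast markers summed to 1457 to 1657 CPM in KO TAC and 840.0 to 1550 CPM in WT TAC hearts, and the endothelial markers to 1147 to 1219 CPM in KO TAC and 754 to 1124 CPM in WT TAC hearts. Their part in the results was not tested.

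Without KO sham replicate 1, the lists gave more calls in KO against WT hearts after TAC, where 40.7% of all genes were called either way. The scaffold proteins then had 1 higher and 6 lower, the kinases 0 higher and 4 lower, and the cardiomyocyte markers 0 higher and 7 lower. The autophagy list had 5 higher and 7 lower, and the heat shock factor targets 6 higher and 5 lower. With any 1 library left out, the calls among the 101 listed genes ran from 0 (without KO TAC replicate 3) to 47 (without KO sham replicate 1), against 28 with all libraries. They were 1 to 6 without KO TAC replicate 1 or 5 or WT TAC replicate 3 or 5. In the other 4 comparisons 0 of the 101 passed with edgeR and all libraries. An unadjusted p under 0.05 was seen for 34 of them in TAC against sham in KO and 21 in TAC against sham in WT. It was seen for 20 in KO against WT after sham and 15 in the interaction. In that order, it held for 4878, 2562, 2138 and 1452 of all 15804 genes. DESeq2 called 14, 5, 2 and 1 of the listed genes in the same order, against 11.8%, 3.26%, 1.31% and 0.595% of all genes. Without KO sham replicate 1, 20 rose and 27 fell in TAC against sham in KO, where 47.6% of all genes were called. In TAC against sham in WT 6 rose and 3 fell (6.53% of all genes), and after sham surgery 0 were called. In the interaction 8 were higher and 15 lower (12.1% of all genes).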

How the data were processed

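Poly(A) RNA of 12 mouse heart samples was sequenced as 150 bp pairs, per the labels' protocols; HISAT2 is the aligner in the submitters' processing notes. The deposited table holds raw whole-number read counts per Ensembl gene; no source used here gives the authors' counting program, build, annotation or strand use. Of 55357 identifiers, 52081 matched a symbol in GENCODE M21, and transcript lengths came from there. Groups and replicate numbers came from the sample titles. The labels name no animal per sample, so a p-value covers only the spread among these samples, which may be technical.

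From the counts, edgeR 4.0.16 in R 4.3.3 gave TMM-scaled CPM and a robust quasi-likelihood fit with 1 coefficient per group (filterByExpr, 15804 genes, 8 residual degrees of freedom). All 5 comparisons use this fit, with adjustment over all genes tested and a threshold of 0.05. Log2 CPM used a prior count of 2. The fit was tested on simulated data in which no library stood apart, so that test does not cover the libraries that did here. Alternatives were DESeq2 1.42.0, limma-voom (limma 3.58.1) with sample weights, other scalings, no filter, a replicate block, the compared groups alone and libraries left out. All 8 members are named; of each of 13 lists, up to 4 genes past the threshold, by p; lists with no call are given by counts. Of the 3 genes most like each member, the first or the first pair is named; likeness without KO sham replicate 1 was added after seeing the data. Members and lists were chosen with earlier results of these data known.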

Additional observations from a re-analysis of the deposited data

Results flagged for a closer look

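Hspb1 drew attention because the difference between KO and WT hearts had opposite signs after TAC and after sham surgery in every library. After TAC it had 112 to 185 CPM in KO hearts and 195 to 304 CPM in WT hearts, whereas after sham surgery it had 136 to 167 CPM in KO hearts and 97.9 to 118 CPM in WT hearts. The interaction, the TAC response in KO minus that in WT hearts, was -1.22 ± 0.31 on the log2 scale and was not called by edgeR with all libraries (adjusted p = 0.361). The call appeared in 4 alternatives. It came with KO sham replicate 1 left out (-1.22, adjusted p = 0.0263, 12.1% of all genes called). It also came with that library and WT TAC replicate 1 both out (-1.29, 0.00782, 36.1%). DESeq2 (-1.19, 0.0336, 0.595%) and limma-voom (-1.28, 0.00242, 31.8%) gave it too. The libraries left out were picked by their values in these same data, so those calls are no separate support. The share of all genes with such opposite signs is not given here.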

How the results depend on the processing

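Of 832 alternative values for the 8 genes, 723 kept direction and side of the threshold, 45 passed it newly, 31 lost it and 33 changed sign; the cause was not tested. In KO against WT after TAC, 5 members were called, with 20.4% of all genes (0 to 5 members with 1 library left out). The counts with 1 library left out were 0 to 3 for TAC in KO, 0 to 3 for TAC in WT, 0 to 4 for the interaction and 0 for KO against WT after sham, against 0 with all libraries. The highest counts came without KO sham replicate 1, where 47.6%, 6.53% and 12.1% of all genes were called in the first 3 of these. For TAC in KO, limma-voom called 4 (63% of all genes) and leaving out both libraries that stood apart called 3 (55.5%). For TAC in WT, library totals, no filter and the compared groups alone called 1 each (0.278%, 0.427% and 0.597% of all genes). In the same comparison DESeq2 called 2 (3.26%), limma-voom 4 (6.8%) and leaving out both libraries 5 (6.18%). For KO against WT after sham limma-voom called 3 (14.9% of all genes). For the interaction DESeq2 called 1 (0.595%), limma-voom 4 (31.8%) and leaving out both libraries 4 (36.1%). Scaling by library totals moved the median of all genes to -0.24 in KO against WT after TAC, -0.19 in TAC in KO, 0.17 in TAC in WT, 0.12 after sham and -0.40 in the interaction. Signs changed only where the gene had no call in that comparison. With library totals they changed for Hspb3 (0.053) and Bag3 (0.050) in TAC in WT, and for Hspb2 (0.098), Hspb3 (0.097) and Bag3 (0.036) after sham. With limma-voom they changed for Bag3 in TAC in WT (0.034), and for Hspb2 (0.035) and Hspb3 (0.040) after sham. With both libraries left out they changed for Bag3 in TAC in WT (0.14), Hspb3 after TAC (0.085), Hspb2 (0.018), Hspb3 (0.056), Hspb8 (0.088) and Bag3 (0.035) after sham, and Hspb3 in the interaction (0.028). With the compared groups alone Hspb2 changed after sham (0.0039). With 1 library left out, the range crossed 0 for Hspb1 in TAC in KO (-0.25 to 0.14), and for Hspb3 (-0.30 to 0.010) and Bag3 (-0.38 to 0.13) in TAC in WT. After TAC it crossed 0 for Hspb3 (-0.24 to 0.090) and Bag3 (-0.40 to 0.096). After sham it did so for Hspb2 (-0.053 to 0.050), Hspb3 (-0.091 to 0.045), Hspb8 (-0.31 to 0.075) and Bag3 (-0.18 to 0.023), and in the interaction for Hspb3 (-0.22 to 0.12) and Bag3 (-0.30 to 0.19). No pairing by replicate number was seen. Same-numbered KO and WT libraries correlated between -0.19 and 0.06 in their deviations, and not every library was closest to its own number. With 3 libraries per group, of which some stood apart, this check cannot exclude a pairing. With the replicate block, 4 of the 5 calls after TAC stayed, Hspb8 had an adjusted p of 0.0590, and Hspb1 in TAC in KO stood at 0.016.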
